A study of Mus musculus with 13 samples.

Results

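Vegfa, Gdf15, Ccl2, Cxcl1, Cxcl12, Il6, Lif, Hbegf and Angptl2 encode factors that cells release to act on other cells. They were followed by ribosome footprint profiling, which sequences the mRNA fragments protected by translating ribosomes, in mouse fibroblasts under endoplasmic reticulum (ER) stress. The 9 genes were taken by symbol from the 22406 genes of the tables, and each had a row in both the MEF and the NIH3T3 tables. The stress was thapsigargin (Tg), which blocks the pump that loads calcium into the ER. The libraries were of mouse embryonic fibroblasts (MEFs) that were WT or PERK −/− and of NIH3T3 cells, an established mouse embryonic fibroblast line labelled WT. WT MEFs and PERK −/− MEFs were each sampled without Tg (control) and after 1, 2, 5 and 8 h of 1 μM Tg, and NIH3T3 cells without Tg and after 2 and 7 h of 200 nM Tg. Each of the 13 conditions was 1 library of 1 cell line, with no replicate, and no strain, clone number or donor is given in the sources used here. A difference between genotypes therefore cannot be told apart from a difference between 2 cell lines, and no test of a condition was possible.

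ER stress activates the unfolded protein response through 3 sensors of the ER membrane, PERK, IRE1 and ATF6. PERK phosphorylates the initiation factor eIF2α, which lowers translation of most mRNAs while that of Atf4 goes up, and ATF4 in turn drives Ddit3 (CHOP) and Trib3. Secreted proteins are themselves made at the ER. Among them, chemokines draw leukocytes, cytokines of the IL-6 family signal through the shared receptor chain gp130, Vegfa drives the growth of blood vessels, and Gdf15 is a distant TGF-β relative known as a stress-induced hormone.

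Levels are in TPM, the share of a library that a gene takes once the length of its coding sequence is corrected for, and a change is the log2 ratio of TPM to the control of the same cells after values under 4 TPM were raised to 4. A gene is said to have risen or fallen where that ratio passed 2-fold, the rule of the study's methods, which applies to genes with a mean of at least 2 TPM. The study words this mean as across all samples. Here it was taken over the MEF and NIH3T3 tables separately, and the omission of Il6 in MEFs and of Cxcl12 in NIH3T3 cells depends on that choice. The depth behind each change is given as the expected counts and as the log2 ratio of counts per library total with its exact conditional (Clopper-Pearson) 95% interval, which covers counting error only and says nothing of the spread between cultures. TPM values are shares of 1 library, so a drop in all translation at once leaves no trace in them. They also combine the amount of an mRNA with the ribosomes on it, and fewer expressing cells and less signal per cell cannot be told apart.

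The libraries held between 2525029 (WT MEFs, 2 h) and 14799515 (PERK −/− MEFs, 2 h) expected counts, and the NIH3T3 library at 2 h held 2569965. All 7 fibroblast markers examined reached 4 TPM in both kinds of MEFs and 6 of 7 in NIH3T3 cells, where Col3a1 did not, and their summed level was 5438 to 6324 TPM in WT MEFs, 4132 to 6637 TPM in PERK −/− MEFs and 3448 to 4935 TPM in NIH3T3 cells. Of these markers, 5 of 7 fell in PERK −/− MEFs at 2 h (Col1a1, Col1a2, Col3a1, Pdgfrb and Fn1, median log2 change over the 7 of −1.37 beside −0.11 over all genes), 2 of 6 fell in NIH3T3 cells (Col1a1 and Col1a2) and 0 of 7 fell at any time in WT MEFs, and the part of this in the changes of the factors was not tested. Of the 3 endothelial markers, Pecam1 and Tie1 were listed at 0 in all MEF libraries. Their sum reached 0.32 TPM in WT MEFs, 0.13 TPM in PERK −/− MEFs and 3.14 TPM in NIH3T3 cells. Of the 4 epithelial markers, Krt18 reached 4 TPM in both kinds of MEFs and Krt8 in NIH3T3 cells. These markers summed to 6.13 to 17.7 TPM in WT MEFs, 5.16 to 8.87 TPM in PERK −/− MEFs and 9.42 to 15.85 TPM in NIH3T3 cells. Of the leukocyte markers Adgre1 was listed at 0 in all 13 libraries. Summed leukocyte markers were at 0.72 to 2.17 TPM in WT MEFs, 2.02 to 4.80 TPM in PERK −/− MEFs and 12.6 to 49.8 TPM in NIH3T3 cells, there mostly Lyz2, and the part of such cells in the cytokine levels of NIH3T3 cells was not tested. Footprints on Eif2ak3, which encodes PERK, did not check the genotype label by themselves. In the libraries labelled PERK −/− their counts per library total were 0.40 to 0.62 times those of WT MEFs at the same time but not absent (74 to 142 expected counts), and in TPM they were higher in the PERK −/− control (11.2) than in the WT control (6.03).

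In WT MEFs, 5 of the 9 genes rose at 1 or more times of Tg and 2 fell. Vegfa, Gdf15, Ccl2, Cxcl1 and Lif rose, Hbegf and Angptl2 fell, Cxcl12 stayed within 2-fold in TPM, and Il6 was too low to be assessed. Over all 10432 genes assessed in the MEF table, 10.7% rose and 6.64% fell at any time in WT MEFs. In PERK −/− MEFs only Lif rose, at 1 h, against 6.25% of all genes, and Hbegf and Angptl2 fell, against 10.6% of all genes. In NIH3T3 cells 6 genes rose (Vegfa, Gdf15, Cxcl1, Il6, Lif and Hbegf), against 10.5% of the 10117 genes assessed, and Angptl2 fell, against 9.72%. By time, WT MEFs had 2 of the 9 genes up and 1 down at 1 h (4.33% and 2.29% of all genes), 4 up and 1 down at 2 h (5.66% and 4.01%), 2 up and 2 down at 5 h (5.86% and 3.55%) and 3 up and 2 down at 8 h (6.45% and 3.87%). PERK −/− MEFs had 1 up and 1 down at 1 h (0.719% and 3.38% of all genes), 0 up and 1 down at 2 h (0.623% and 5.78%, the time when 5 of the 7 fibroblast markers fell), and 0 up and 2 down at both 5 h (3.26% and 4.77%) and 8 h (3.28% and 2.73%). NIH3T3 cells had 4 up and 1 down at both 2 h (5.76% and 3.76% of all genes) and 7 h (7.01% and 8.06%). The genes passing the mean of 2 TPM were 8 of 9 in each table, without Il6 in MEFs and without Cxcl12 in NIH3T3 cells. Gdf15 passed in MEFs, with a mean of 2.835 TPM, only through the treated WT libraries. Its PERK −/− libraries held 0 to 3.12 TPM, with a median of 0.71 TPM.

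**Figure D1:**
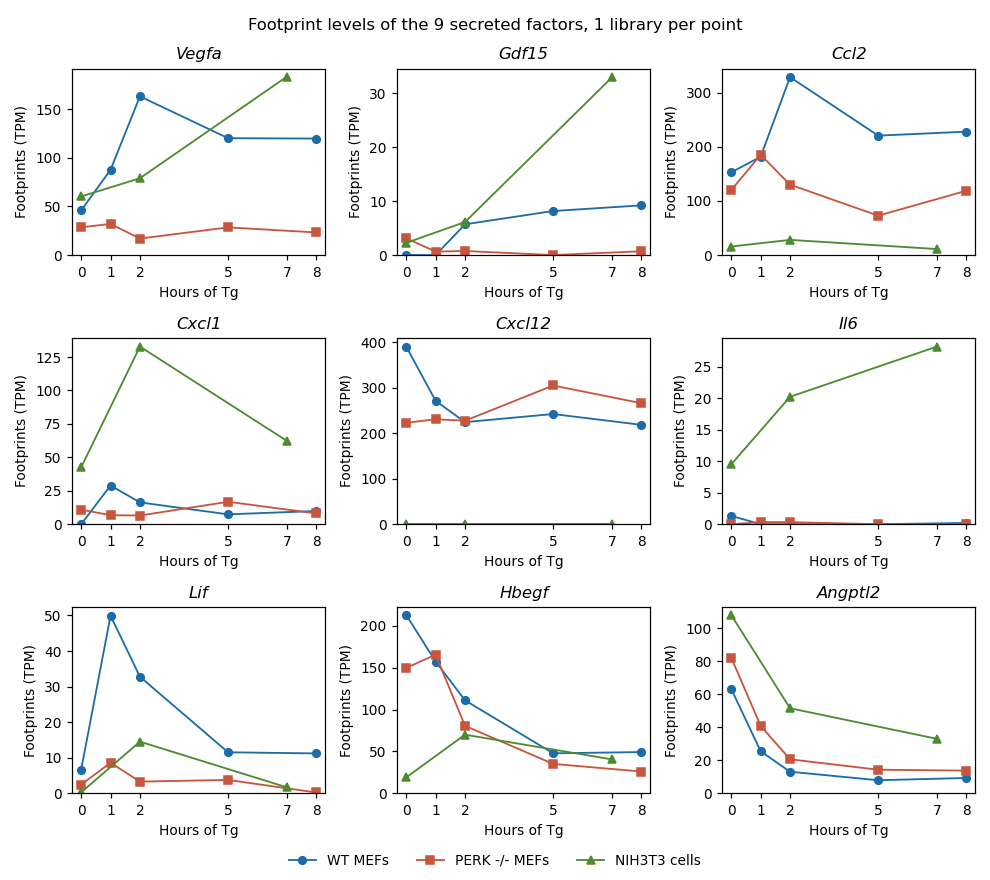
Footprint level in TPM (vertical axis, from 0) against hours of Tg (horizontal axis, 0 is the control) for each of the 9 genes, 1 library per point, with lines joining libraries of the same cells. Vegfa climbed in WT MEFs from 45.9 to 163 TPM at 2 h while the 5 PERK −/− libraries stayed at 32.0 TPM or lower, and Angptl2 declined in all 3 kinds of cells.

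Vegfa, the main growth factor of blood vessels, lies at chr17:46016993-46032369 (minus strand, GRCm38, the assembly of mm10). In WT MEFs it was at 45.9 TPM in the control and at 87.6, 163, 120.0 and 119.6 TPM after 1, 2, 5 and 8 h. All 4 treated libraries were above the control, and the level at 2 h was the highest of all 10 MEF libraries. On the log2 TPM scale the changes were 0.93, 1.83, 1.39 and 1.38, so the 2-fold rule was passed from 2 h on. The count scale gave smaller changes of 0.61 (0.35 to 0.86), 1.40 (1.16 to 1.64), 1.13 (0.93 to 1.33) and 1.14 (0.97 to 1.32). Vegfa has several transcripts, and the share of reads RSEM gave to each enters TPM but not the gene's count. Between 5 and 8 h the level did not differ beyond counting error (−0.16 to 0.18 on the log2 count scale).

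In PERK −/− MEFs Vegfa was at 28.5 TPM in the control and at 32.0, 17.0, 28.4 and 23.2 TPM after 1, 2, 5 and 8 h, from 106 to 204 expected counts a library. No library reached a 2-fold change. The interval of the count change included 0 at 2, 5 and 8 h, and at 1 h the change was 0.37 (0.03 to 0.73). The change in PERK −/− MEFs was lower than that in WT MEFs by 1.64 log2 units at 2 h (interval of the difference −2.05 to −1.23), by 1.22 at 5 h (−1.64 to −0.79) and by 1.12 at 8 h (−1.53 to −0.71), while at 1 h the interval of the difference ran from −0.66 to 0.18. In NIH3T3 cells Vegfa went from 60.2 TPM in the control to 78.9 TPM at 2 h and 183 TPM at 7 h, with count changes of 0.79 (0.53 to 1.04) and 1.67 (1.50 to 1.84). It passed 2-fold in these cells at 7 h and not at 2 h.

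Gdf15, at chr8:70629393-70632456 (minus strand), had few counts in MEFs. In WT MEFs it had 0 expected counts in the control and at 1 h, and 12, 41 and 92 at 2, 5 and 8 h, which corresponded to 5.71, 8.18 and 9.23 TPM. It passed the 2-fold rule at 5 and 8 h, by 2.045-fold and 2.31-fold from the floor of 4 TPM, close to the threshold. Counts per library total were then 29.1 and 32.8 times the level that 3 counts in the control library would give. The lower limits of the exact intervals against the 0 counts found were 22.6-fold and 26.1-fold. The rise at 2 h rested on too few counts for a fold, with 12 counts over both libraries. PERK −/− MEFs held more Gdf15 without Tg than with it. Their control had 16 expected counts (3.12 TPM) and the treated libraries had 5, 9, 0 and 4. Every one of these levels was under 4 TPM, so the 2-fold rule saw no change, whereas counts per library total fell by 2.25 on the log2 scale at 1 h (−4.05 to −0.74), by 1.97 at 2 h (−3.33 to −0.70) and by 2.14 at 8 h (−4.18 to −0.51). In NIH3T3 cells Gdf15 went from 21 counts (2.27 TPM) to 15 (6.13 TPM) at 2 h and 158 (33.0 TPM) at 7 h, a count change at 7 h of 3.86 (3.20 to 4.59). Gdf15 had thus its highest level of all 13 libraries in NIH3T3 cells at 7 h.

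Hbegf encodes a ligand of the EGF receptor that is made as a membrane protein and shed by metalloproteases. In WT MEFs its level went down with each of the first 3 times, from 213 TPM in the control to 157, 111 and 47.8 TPM, and was 49.3 TPM at 8 h. In PERK −/− MEFs it was 149.9 TPM in the control, 166 TPM at 1 h, and then 80.7, 35.2 and 26.1 TPM. Both kinds of MEFs passed the 2-fold rule at 5 and 8 h, with count changes of −2.16 (−2.41 to −1.92) and −2.11 (−2.29 to −1.94) in WT MEFs and of −2.06 (−2.31 to −1.81) and −2.53 (−2.84 to −2.24) in PERK −/− MEFs. The counts were high for this gene, 112 to 1482 a library. The difference of the changes, PERK −/− minus WT, was 0.60 (0.37 to 0.82) at 1 h, when Hbegf was lower than its control in WT MEFs (−0.42) and slightly higher in PERK −/− MEFs (0.17, 0.02 to 0.32). It included 0 at 2 h (−0.17 to 0.40) and 5 h (−0.24 to 0.45). At 8 h it had the opposite sign, −0.42 (−0.76 to −0.08), so the fall was then larger in PERK −/− MEFs. NIH3T3 cells went the other way. There Hbegf was at 19.0 TPM in the control, 70.1 TPM at 2 h and 40.6 TPM at 7 h, count changes of 2.00 (1.64 to 2.37) and 1.09 (0.75 to 1.44).

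Angptl2, an angiopoietin-like glycoprotein released by fibroblasts among others, lies at chr2:33216069-33247717 (plus strand). It was the 1 gene of the 9 that fell in every treated library of all 3 kinds of cells, passing 2-fold in TPM in 10 of 10 comparisons with the control. A pair of these calls was close to the threshold (2.01-fold in PERK −/− MEFs at 1 h and 2.10-fold in NIH3T3 cells at 2 h) and missed it on counts per library total, which were 0.51 (0.46 to 0.56) and 0.52 (0.45 to 0.59) times the control. In WT MEFs the level went from 63.1 TPM to 25.5, 13.1, 7.92 and 9.30 TPM, and in PERK −/− MEFs from 82.05 TPM to 40.8, 20.6, 14.3 and 13.7 TPM. In NIH3T3 cells it went from 108 TPM to 51.5 TPM at 2 h and 33.0 TPM at 7 h. The largest change in MEFs was 7.97-fold down, in WT MEFs at 5 h, with 67 expected counts against 1137 in the control and a count change of −3.00 (−3.37 to −2.64). PERK −/− MEFs fell 5.74-fold at the same time and 5.97-fold at 8 h. The fall was smaller in PERK −/− MEFs than in WT MEFs at 1 h (difference 0.32, 0.02 to 0.61) and 5 h (0.51, 0.08 to 0.94), and the interval of the difference included 0 at 2 h (−0.09 to 0.79) and 8 h (−0.17 to 0.52). The PERK −/− MEFs had the higher level at each of the 5 times, by 1.30 to 1.81 times in TPM. In NIH3T3 cells the fall at 7 h was 3.27-fold.

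**Figure D2:**
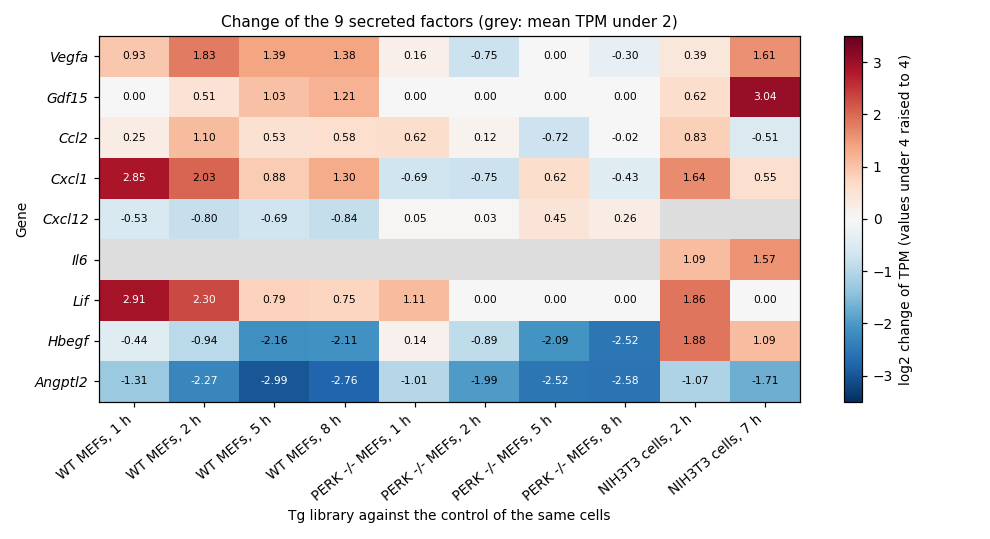
Log2 change of TPM against the control of the same cells, after TPM under 4 were raised to 4, for the 9 genes (rows) in the 10 treated libraries (columns), with the value written in each cell. Angptl2 is negative in all 10 columns, Hbegf is negative at 5 and 8 h in MEFs and positive in NIH3T3 cells, and Vegfa and Lif are at or above 0.75 in each of the 4 WT MEF columns.

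The 3 chemokines behaved differently from each other. Ccl2 (MCP-1, at chr11:82035571-82037453), which draws monocytes through the receptor Ccr2, was at 153 TPM in the WT control and at 181, 328, 220.4 and 228 TPM after 1, 2, 5 and 8 h. The level at 2 h was the only one past 2-fold, with a count change of 1.11 (0.92 to 1.30), and the later levels were 1.44 and 1.49 times the control. In PERK −/− MEFs Ccl2 was at 120.0 TPM in the control and at 185, 130.0, 72.7 and 119 TPM, and none of these passed 2-fold. The time of the highest level was thus 2 h in WT MEFs and 1 h in PERK −/− MEFs. The difference of the changes, PERK −/− minus WT, was 0.39 (0.11 to 0.67) at 1 h and then −0.92 (−1.19 to −0.65), −1.21 (−1.51 to −0.92) and −0.60 (−0.86 to −0.34). NIH3T3 cells had little Ccl2, with 74, 33 and 27 expected counts (15.8, 28.05 and 11.1 TPM), and their changes stayed within 2-fold.

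Cxcl1, a chemokine for neutrophils at chr5:90891241-90893115, had low counts in MEFs. It was listed at 0 in the WT control and had 23, 9, 9 and 24 expected counts after Tg, or 28.9, 16.3, 7.37 and 9.86 TPM. With the control set to 3 counts, the counts per library total were 25.4-fold higher at 1 h and 8.55-fold higher at 8 h. The lower limits of the exact intervals against 0 counts were 19.0-fold and 6.43-fold. It passed the 2-fold rule at 1, 2 and 8 h, although at 2 h and 5 h the counts were too few for a fold. Within WT MEFs the level at 5 h was lower than at 1 h by a factor of 3.93. PERK −/− MEFs had 13 to 30 counts in each library, with 10.9 TPM in the control and 6.75, 6.50, 16.8 and 8.08 TPM after Tg, and every interval of the count change included 0. In NIH3T3 cells Cxcl1 was more abundant, at 42.5 TPM in the control, 133 TPM at 2 h and 62.3 TPM at 7 h. It passed 2-fold there at 2 h, with a count change of 1.77 (1.35 to 2.18), and was lower again at 7 h.

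Cxcl12 (SDF-1, at chr6:117168535-117181367), which holds blood stem cells in the marrow through Cxcr4, had the highest level of the 9 genes in the untreated WT MEFs. It was at 391 TPM in that control and at 271, 225, 242 and 219 TPM after Tg, all lower than the control. None of these passed 2-fold in TPM, where the largest change was −0.84 at 8 h, but the counts per library total fell by 1.03 (−1.31 to −0.75) at 2 h and by 1.07 (−1.22 to −0.92) at 8 h on the log2 scale. In PERK −/− MEFs Cxcl12 was at 223, 231, 228, 305 and 266 TPM, so the treated libraries were at or above the control. The difference of the changes was 0.84 (0.55 to 1.13), 1.13 (0.80 to 1.46), 1.39 (1.11 to 1.66) and 1.26 (1.01 to 1.52) at 1, 2, 5 and 8 h. The controls themselves differed by 1.75 times in TPM, and after Tg the 2 genotypes differed by 1.26 times or less. All 3 NIH3T3 libraries listed Cxcl12 at 0. With 3 counts as the floor, this allows up to 0.27 CPM (counts scaled to the library total) in the control and 1.17 CPM at 2 h.

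Of the IL-6 family, Lif (leukemia inhibitory factor, at chr11:4257557-4272514), which keeps mouse embryonic stem cells undifferentiated, had an early and short rise. In WT MEFs it went from 6.66 TPM in the control to 49.9 TPM at 1 h and 32.8 TPM at 2 h and was then at 11.5 and 11.2 TPM. The count changes were 2.76 (2.23 to 3.31), 2.31 (1.68 to 2.93), 0.55 (−0.16 to 1.24) and 0.75 (0.20 to 1.33). The level at 5 h was 4.33 times lower than that at 1 h. PERK −/− MEFs were also highest at 1 h, at lower levels, with 2.45 TPM in the control, 8.61 TPM at 1 h and 3.30, 3.77 and 0.24 TPM later. At 1 h they passed 2-fold, with 46 expected counts against 9 and a count change of 1.78 (0.73 to 3.00), but a rise to 8.61 from the floor of 4 TPM was 2.15-fold, close to the threshold. The NIH3T3 libraries (control, 2 h, 7 h) held 2, 25 and 6 counts of Lif, or 0.29, 14.5 and 1.69 TPM. It rose at 2 h there too, with a count change of 5.76 (3.75 to 8.88), and the counts at 7 h were too few for a fold.

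Il6 itself (chr5:30013114-30019981), the cytokine of fever and the acute-phase response, was seen in NIH3T3 cells. It was at 9.51 TPM in their control, 20.2 TPM at 2 h and 28.2 TPM at 7 h, from 64, 35 and 80 expected counts. Both treated libraries passed 2-fold, with count changes of 1.24 (0.61 to 1.86) and 1.27 (0.78 to 1.77), and they did not differ from each other beyond counting error (−0.56 to 0.65). In MEFs no change of Il6 could be assessed. The WT libraries had 7, 0, 0, 0 and 1 counts and the PERK −/− libraries 0, 2, 3, 0 and 0, all under the mean of 2 TPM.

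Too few counts for a fold means here that a library and its control held under 20 expected counts together. This was so for Il6 in all 8 MEF comparisons and for Cxcl12 in both NIH3T3 comparisons. It was also so for Gdf15 in WT MEFs at 1 and 2 h and in PERK −/− MEFs at 5 h, for Cxcl1 in WT MEFs at 2 and 5 h, and for Lif in PERK −/− MEFs at 8 h and in NIH3T3 cells at 7 h. For these pairs the levels above are a description only.

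**Figure D3:**
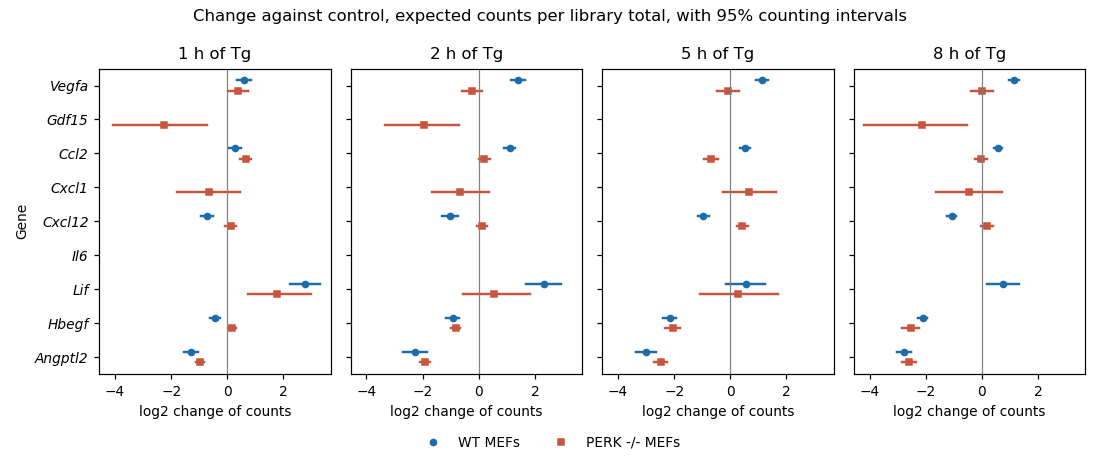
Log2 ratio of expected counts per library total to the control (horizontal axis) for the 9 genes in MEFs, in 1 panel per time of Tg, with WT MEFs in blue and PERK −/− MEFs in red and bars for the 95% counting intervals of 1 library against 1 control. Pairs with too few counts and those with 0 counts in a library are not drawn, and Vegfa in WT MEFs lies to the right of Vegfa in PERK −/− MEFs without overlap of the bars at 2, 5 and 8 h.

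The genotypes were also set side by side at the same time, by the same rule on TPM. Without Tg, Cxcl1 alone passed 2-fold by this rule between PERK −/− and WT MEFs (10.9 against 0 TPM, on too few counts), against 6.04% of all genes higher and 1.97% lower in PERK −/− MEFs. The rule hid differences between the controls that the counts per library total showed. On that scale Vegfa in the PERK −/− control was 0.46 (0.37 to 0.57) times that in the WT control, past 2-fold. Lif was at 0.35 times the WT control, from 9 against 45 counts, where the floor of 4 TPM masked the difference, and Gdf15 had 16 counts against 0, too few for a fold. At 1 h, Vegfa, Cxcl1 and Lif were lower in PERK −/− MEFs, 3 genes of 8, against 5.34% of all genes, and 0 were higher, against 3.49%. At 2 h these were 4 genes, now with Ccl2, against 9.96%, and 0 were higher, against 6.36%. The interval of Cxcl1 at this time included 0, and Gdf15, which the rule did not call, was lower in PERK −/− MEFs on counts (log2 ratio −2.97, −4.39 to −1.60). At 5 h Vegfa, Gdf15, Ccl2 and Lif were lower, against 7.48%, and Cxcl1 was higher (16.8 against 7.37 TPM), against 8.54%. At 8 h Vegfa, Gdf15 and Lif were lower, against 5.62%, and 0 were higher, against 10.1%. Gdf15 entered these counts only because its WT levels carried it past the mean of 2 TPM, so its calls at 5 and 8 h are a description only. Vegfa was 9.61 times lower in PERK −/− MEFs at 2 h (17.0 against 163 TPM) and 5.15 times lower at 8 h in TPM, where the controls had differed by 1.61 times. On counts per library total it was at 0.15 times WT MEFs at 2 h and 0.21 times at 8 h, beside 0.46 times in the controls. Lif was 5.80 times lower in TPM at 1 h and 8.19 times lower at 2 h, where the floor was used. Hbegf and Angptl2 stayed within 2-fold between the genotypes at all 5 times.

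The regulatory sequence before the start sites was searched for motifs of factors that act in ER stress, hypoxia and inflammation. RefSeq start windows (GRCm38.p6) were at hand for 7 of the 9 genes, all but Ccl2 and Hbegf, in 9 windows, and motifs were searched on both strands in the 250 bases before the start. The NF-κB motif was found in 4 of the 9 windows, 1 each of Vegfa, Cxcl1, Lif and Il6, against 7.25% of the 32851 windows of the table. It was not found in the windows of Gdf15, which also rose in WT MEFs and NIH3T3 cells, nor in those of Cxcl12 and Angptl2. A link between the motif and the changes under Tg was not tested. The AP-1 motif TGANTCA, bound by FOS and JUN, was found in 2 of the 9 windows, those of Il6 and Lif, against 6.75%. The core ACGTG of the hypoxia element, which also lies within the E-box, was found in 3 of the 9, those of Cxcl1 and of second start sites of Vegfa and Gdf15, against 16.6%. The joint ATF4 and C/EBP motif TGATGNAA (3.45% of all windows), the cyclic AMP element TGACGTCA (1.55%) and the ER stress element ERSE (0.113%) were found in none of the 9 windows. A match is a run of letters and not a bound site, and no match says only that these letters are not in this window. The 4 windows with an NF-κB match, chosen for that match, are printed from base −250 to base −21 before the start on the gene's own strand, 5′ to 3′, with the motif matches in capitals, namely NF-κB in all 4, AP-1 in Il6 and Lif and the reverse complement of ACGTG in Cxcl1. They lie at chr5:30012864-30013093 (Il6), chr5:90890995-90891224 (Cxcl1), chr11:4257318-4257547 (Lif) and chr17:46032398-46032627 (Vegfa).
Il6: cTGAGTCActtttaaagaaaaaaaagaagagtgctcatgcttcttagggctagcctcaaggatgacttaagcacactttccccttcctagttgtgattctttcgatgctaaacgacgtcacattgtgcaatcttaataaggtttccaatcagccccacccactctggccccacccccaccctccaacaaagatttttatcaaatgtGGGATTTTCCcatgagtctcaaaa
Cxcl1: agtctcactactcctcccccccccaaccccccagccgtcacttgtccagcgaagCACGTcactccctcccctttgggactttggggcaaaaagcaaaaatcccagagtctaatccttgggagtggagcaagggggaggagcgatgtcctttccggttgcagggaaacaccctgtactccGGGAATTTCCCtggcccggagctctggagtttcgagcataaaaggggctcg
Lif: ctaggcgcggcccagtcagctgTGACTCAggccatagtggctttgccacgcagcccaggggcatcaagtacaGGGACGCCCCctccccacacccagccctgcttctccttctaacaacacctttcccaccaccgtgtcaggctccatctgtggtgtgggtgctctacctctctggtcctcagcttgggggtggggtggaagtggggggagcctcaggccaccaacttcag
Vegfa: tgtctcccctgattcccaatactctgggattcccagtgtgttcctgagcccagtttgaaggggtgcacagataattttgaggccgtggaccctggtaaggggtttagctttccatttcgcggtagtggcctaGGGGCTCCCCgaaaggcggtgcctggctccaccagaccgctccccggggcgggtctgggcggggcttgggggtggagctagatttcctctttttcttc
In Cxcl1 and Il6 the NF-κB match lies close to the start, from base −71 and from base −44, and in Vegfa and Lif farther away, from base −118 and from base −178.

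More of the transcription factors and signalling genes listed as regulators of these factors rose in WT MEFs and NIH3T3 cells than in PERK −/− MEFs. Of 21 regulators past the mean of 2 TPM in each table, 13 rose and 2 fell at any time in WT MEFs, with Egr1 in both counts. In PERK −/− MEFs 2 rose and 6 fell, and in NIH3T3 cells 11 rose and 0 fell, beside the shares of all genes given above (10.7%, 6.25% and 10.5% up, and 6.64%, 10.6% and 9.72% down). Atf4 was raised 16.0-fold at 2 h in WT MEFs and 8.36-fold at 2 h in NIH3T3 cells, and in PERK −/− MEFs it stayed between 0.61 and 1.45 times its control. Ddit3 followed, with 32.1-fold at 2 h in WT MEFs against 2.05-fold in PERK −/− MEFs. Xbp1, the target of the IRE1 arm, rose in all 10 treated libraries, by 2.02 to 2.99 times in PERK −/− MEFs and by 2.86 to 6.50 times in WT MEFs. Nfkbia, the NF-κB inhibitor that NF-κB itself induces, rose 2.56-fold and 2.87-fold at 1 and 2 h in WT MEFs and 3.25-fold at 2 h in NIH3T3 cells, and stayed at 1.07 to 1.35 times the control in PERK −/− MEFs. The immediate early gene Egr1 rose 5.72-fold at 1 h in WT MEFs, the time of the Lif maximum, and 13.9-fold at 2 h in NIH3T3 cells, whereas in PERK −/− MEFs it fell to 2.55 TPM at 2 h from 46.6 TPM. Lif was highest at 1 h in PERK −/− MEFs as well, where Xbp1 was the only listed regulator that rose and Egr1 did not. Hif1a, a known driver of Vegfa, stayed at 0.84 to 0.90 times its control in WT MEFs and reached 1.43 times in NIH3T3 cells at 7 h. Footprints do not measure the activity of a regulator, and a link between any of these regulators and a factor was not tested. The median change over the 21 regulators at 2 h was 0.60 in WT MEFs, −0.28 in PERK −/− MEFs and 0.69 in NIH3T3 cells, beside 0.00, −0.11 and −0.13 over all genes assessed.

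None of the receptors and processing enzymes assessed for these factors rose in any of the 3 kinds of cells. Of the 22 listed, 15 passed the mean of 2 TPM in MEFs and 12 in NIH3T3 cells. Ret, which did not pass, went from 3 to 26 counts in NIH3T3 cells at 7 h (1.22 TPM), a count change of 4.07 (2.36 to 6.43). It went from 130 counts in the WT control to 9, 2, 2 and 3 after Tg, and from 44 to 55, 35, 1 and 9 in PERK −/− MEFs. In WT MEFs 0 rose and 5 fell, in PERK −/− MEFs 0 rose and 4 fell, and in NIH3T3 cells 0 rose and 3 fell, beside 10.7%, 6.25% and 10.5% of all genes up and 6.64%, 10.6% and 9.72% down. Adam10, a metalloprotease that sheds membrane ligands, went from 89.9 TPM to 51.4, 39.6, 38.8 and 37.1 TPM in WT MEFs but from 89.8 TPM to no lower than 71.6 TPM in PERK −/− MEFs, and fell in both NIH3T3 libraries, by 2.31-fold and 2.09-fold. Furin, a protease that cuts precursors of secreted proteins, fell at 5 and 8 h in WT MEFs and at all 4 times in PERK −/− MEFs, where it was at 0.46, 0.32, 0.39 and 0.38 times the control. Ackr3, the scavenging receptor of Cxcl12, fell from 21.0 to 7.29, 7.58 and 5.45 TPM at 2, 5 and 8 h in WT MEFs. In PERK −/− MEFs it fell at 2 h, from 14.9 to 4.63 TPM, and was at 22.03 TPM at 8 h. Il6st (gp130), the shared chain for Il6 and Lif, stayed within 2-fold in all 10 treated libraries. The median change over the receptors and enzymes at 8 h was −0.63 in WT MEFs and −0.53 in PERK −/− MEFs, beside 0.01 and 0.04 over all genes.

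Among 29 related ligands of the same families, 20 were assessed in MEFs and 13 in NIH3T3 cells. In WT MEFs 8 rose and 3 fell, in PERK −/− MEFs 5 rose and 6 fell, and in NIH3T3 cells 6 rose and 1 fell, beside the same shares of all genes (10.7%, 6.25% and 10.5% up, and 6.64%, 10.6% and 9.72% down). Ccl7, a monocyte chemokine that neighbours Ccl2 in function, rose at all 4 times in WT MEFs, from 6.80 to 24.8, 28.6, 44.4 and 34.4 TPM. It also rose in PERK −/− MEFs at 1 and 2 h, from 16.8 to 89.97 and 66.4 TPM, where Ccl2 did not pass 2-fold. Cxcl10, an interferon-induced chemokine, was 2.43 to 2.58 times its control at all 4 times in WT MEFs, and in PERK −/− MEFs passed 2-fold at 8 h only. Clcf1, a further gp130 cytokine, went up in WT MEFs from 6.92 to 21.5 TPM at 2 h and down in PERK −/− MEFs from 16.0 to 5.21 TPM at 2 h and 2.42 TPM at 5 h. Fgf21, like Gdf15 a stress-induced hormone, had 0 counts in the WT control and 12, 31 and 48 at 2, 5 and 8 h, against 0 to 7 in the treated PERK −/− libraries, and 65 against 9 counts in NIH3T3 cells at 7 h. Ereg, an EGF receptor ligand like Hbegf, fell in both kinds of MEFs at 5 h, to 3.30 TPM from 13.7 in WT MEFs and to 4.79 TPM from 22.4 in PERK −/− MEFs.

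**Figure D4:**
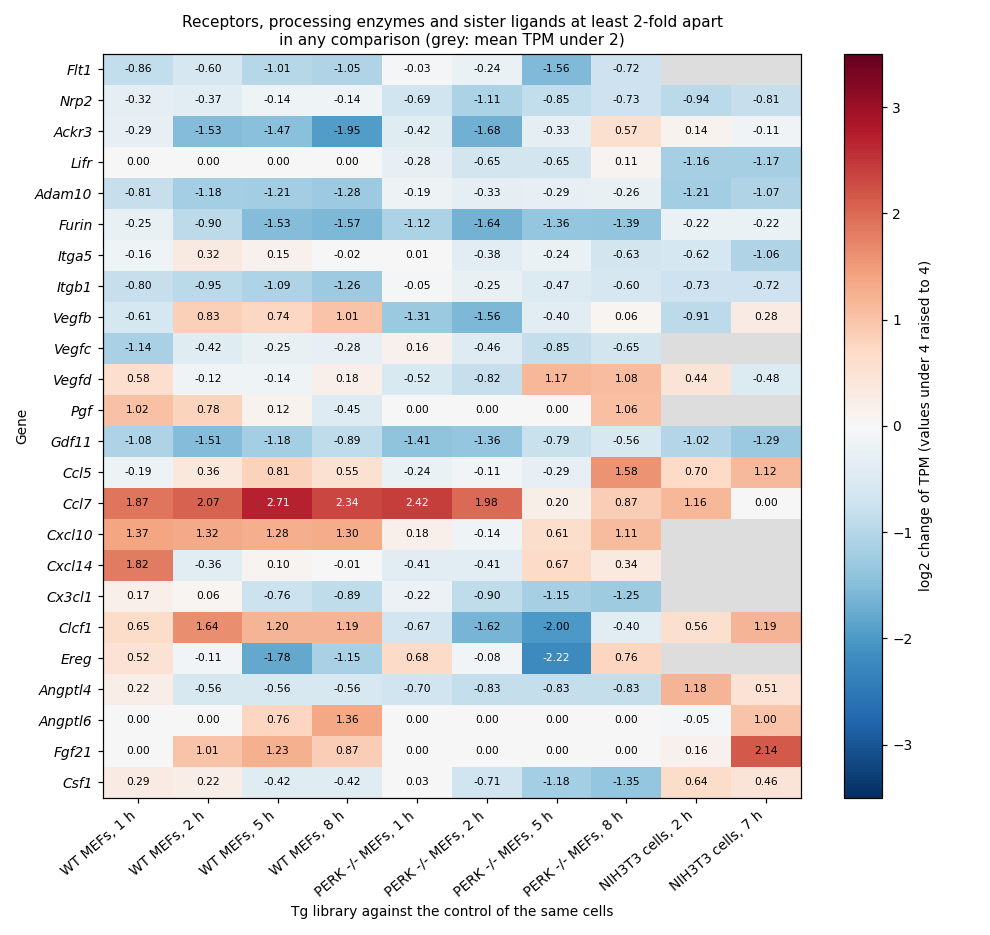
Log2 change of TPM against the control for receptors, processing enzymes and related ligands (rows) in the 10 treated libraries (columns). TPM under 4 were raised to 4, and only genes past the fold threshold in some comparison are drawn. No receptor or processing enzyme passes 1.00 upwards.

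The genes most like each factor were named by Pearson's r of log2(TPM + 1) over the 10 MEF libraries, with 6109 candidate genes that held 50 or more counts in every library, for the 5 factors with at least 10 counts in all of them. The 10 libraries come from 2 cell lines and differ in depth, so r is given as a description. Vegfa was most like Hgh1 (r = 0.98) and Ptbp1, an RNA-binding splicing regulator (r = 0.98), although Ptbp1 ranged over 431 to 648 TPM, far less in proportion than Vegfa. Ccl2 was most like Plk3, a stress-responsive polo-like kinase (r = 0.96), and Cttnbp2nl (r = 0.95). Plk3 went from 10.3 to 24.3 TPM at 2 h in WT MEFs and from 7.62 to 11.6 TPM at 1 h in PERK −/− MEFs, the times of the Ccl2 maxima. Hbegf was most like Plaur, the urokinase receptor (r = 0.99), which went from 116 to 65.5 TPM at 8 h in WT MEFs and from 100.2 to 51.6 TPM in PERK −/− MEFs, and Utp3 (r = 0.96). Cxcl12 was most like Fnbp1 (r = 0.96) and the kinetochore gene Spc25 (r = 0.89). Angptl2 was most like the predicted gene Gm29779 (r = 0.96) and the splicing factor Srsf9 (r = 0.95), both of which changed by less than 2-fold.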

How the data were processed

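Ribosome footprints of 13 libraries, 1 per condition, were used. Cycloheximide was omitted. After polyA trimming, footprints between 22 and 34 nt were retained by the authors, cleared of rRNA and tRNA with STAR, and aligned by Bowtie2 against the coding regions of mm10 RefSeq transcripts. These had lost 30 nt at either end, and transcripts shorter than 100 nt were dropped. RSEM then gave the values. Versions are not given in the sources used here. The deposited expected counts are whole numbers per gene, not scaled between libraries. The deposited TPM values were scaled by the authors' RSEM run within each library. Columns were assigned to samples by their labels.

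Changes were computed as in the study's methods from TPM (mean of at least 2, values under 4 raised to 4, 2-fold), except that the mean was taken over each table separately. Counting intervals were exact conditional 95% intervals of the expected counts per library total, and intervals of a difference of 2 changes were Wald intervals from the 4 counts where each was at least 10. No test of conditions was run, since each had 1 library. The floor for 0 counts was 3 counts per library. The calculations were tested on simulated data. Alternatives were a floor or pseudocount of 1 TPM, a mean TPM of 5 or none, TMM factors (edgeR 4.0.16), DESeq2 1.42.0 size factors, thinned counts and a 3-fold threshold, and counts per library total, which was added after the data were seen. Python 3.11.15 with scipy 1.17.1 and R 4.3.3 were used.

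The 9 genes, the lists of receptors, related ligands, regulators and markers and the named-gene rule were chosen with earlier results of these data known. Named were the 9 genes, Eif2ak3, listed genes and, for each factor with at least 10 counts in all MEF libraries, the 2 genes of highest r. Gene positions are from GENCODE and start windows from RefSeq, both on GRCm38.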

Additional observations from a re-analysis of the deposited data

Results flagged for a closer look

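For 4 of the factors the change under Tg, as log2 counts per library total, had opposite signs in 2 kinds of cells at the same time, counting only pairs in which both 95% counting intervals excluded 0 and the counts sufficed for a fold. None of these differences was tested, since each condition was 1 library. The share of all genes that meet the same rule was not computed, so whether 4 factors are many cannot be told. An interval can exclude 0 for a small change, such as the 0.17 of Hbegf in PERK −/− MEFs at 1 h. Ccl2 at 5 h changed by −0.69 in PERK −/− MEFs and by 0.53 in WT MEFs, a difference of −1.21. Cxcl12 at 5 h changed by 0.43 in PERK −/− MEFs and by −0.96 in WT MEFs, a difference of 1.39. Hbegf at 1 h changed by 0.17 in PERK −/− MEFs and by −0.42 in WT MEFs, a difference of 0.60.

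Gdf15 at 8 h changed by −2.14 (−4.18 to −0.51) in PERK −/− MEFs, from 16 to 4 counts. In WT MEFs it changed by 5.03 when the 0 counts of their control were set to 3, a difference of −7.18. These 2 values depend on that floor and are not limits, and the lower limit of the WT change was 4.71. At 2 h Gdf15 changed by 1.63 in NIH3T3 cells and by −1.97 in PERK −/− MEFs, a difference of 3.59. Hbegf at 2 h changed by 2.00 in NIH3T3 cells, by −0.93 in WT MEFs and by −0.82 in PERK −/− MEFs, differences of 2.93 and 2.82. The NIH3T3 cells were given 200 nM Tg and the MEFs 1 μM, and cell line and dose cannot be told apart there.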

How the results depend on the processing

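With a floor of 1 TPM, or with a pseudocount of 1 TPM and no floor, 4 genes fell in PERK −/− MEFs in place of 2, with Gdf15 and Lif added, because levels under 4 TPM then count. These falls rested on 16 counts in the control for Gdf15. For Lif they rested on 9 counts in the control against 1 at 8 h, a pair with too few counts for a fold. With a 3-fold threshold 3 genes rose in WT MEFs in place of 5, without Gdf15 and Ccl2, and 0 rose in PERK −/− MEFs in place of 1, without Lif. The shares of all genes past the threshold were computed for the main rule only, so the counts under alternatives have no such share beside them. Under the other alternatives each count of genes that rose or fell stayed within 1.5 times its main value. Single genes still crossed the threshold: Cxcl12 fell in WT MEFs with TMM factors, DESeq2 size factors, thinned counts or counts per library total, Cxcl1 fell in PERK −/− MEFs with thinned counts, Gdf15 was left out with a mean TPM of 5, and Il6 did not reach 3-fold in NIH3T3 cells. Of 480 single changes recomputed under alternatives, 429 moved by less than their counting interval's half-width or had none, 51 moved by more, and no change past 2-fold turned its sign. The moves were most often of Vegfa and Cxcl12, whose TPM and counts differ. The median change of all genes was −0.11 in PERK −/− MEFs and −0.13 in NIH3T3 cells at 2 h, and 0 under DESeq2 size factors. No listed receptor, ligand or regulator past 2-fold turned its sign under the 3 other scalings. No paired analysis was possible because each condition had 1 library, and for the same reason no replicate could be left out. Depth limits Il6 in MEFs most, with 0 to 7 counts a library, and then Gdf15, Cxcl1 and Lif, of which many MEF libraries held under 50 counts.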
